A study of Mus musculus with 96 samples.

Results

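The comparison described here is of inguinal white adipose tissue (iWAT), a subcutaneous fat depot, from Ucp1-KO mice kept for 4 weeks at 20 °C or at 30 °C on a control diet with 13% of its energy from fat. Its members were chosen by their labels (tissue iWAT, Ucp1-KO genotype, control diet) and make up 16 of the 96 libraries of the series, 8 at each temperature. All animals were male C57BL/6J mice, and both groups carried the same Ucp1-KO genotype, the same diet and the same feeding time, so temperature was the only labelled difference between them. The nature of the Ucp1 allele is not given in the sources used here. Each group of the series held 8 animals, with iWAT and interscapular brown adipose tissue (iBAT) taken from each. A temperature of 30 °C is close to thermoneutral for a mouse, and 20 °C is a mild cold load. The question put by the design is what the cold does to the transcriptome of a depot that lacks the main protein of adipose heat production.

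White fat stores triglyceride in large droplets, whereas brown fat burns fuel in dense mitochondria to make heat. Uncoupling protein 1 (UCP1) lets protons flow back into the mitochondrial matrix without making ATP. In the cold, noradrenaline from sympathetic nerves acts on adrenergic receptors of adipocytes, and iWAT then gains cells with many small droplets and a brown-like gene programme, a process known as browning. Without UCP1, other energy-spending routes have been proposed, among them creatine cycling, calcium cycling through the SERCA pump, and a cycle of making and burning lipid.

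In units of 1e6 reads (M), the depth of the 16 libraries was 8.91 M to 16.13 M at 20 °C (median 10.92 M) and 11.54 M to 14.91 M at 30 °C (median 13.22 M). Levels are in RPKM, which is a read count scaled to transcript length and library depth, and differences are 20 °C minus 30 °C on the log2(RPKM + 1) scale with their standard error (SE), which understates the change of genes with low levels. A gene was called at an adjusted p under 0.05 in limma, a linear model fitted over all 15897 genes tested. Correlations between libraries ran from 0.961 to 0.990 within the 20 °C group and from 0.943 to 0.989 within the 30 °C group. Library 64 at 20 °C stood apart as the highest of its group in 17 of the 18 thermogenic core genes. Library 79 at 30 °C correlated least with its group (median r = 0.956) and held few lymphocyte transcripts. Skeletal muscle markers summed to 50.3 to 4919 RPKM at 20 °C and 33.9 to 9395 RPKM at 30 °C, so muscle RNA varied widely within both groups.

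The scale of the values matters for the count of lower genes. In the deposited RPKM, 1434 genes (9.02% of those tested) were higher and 8164 (51.4%) were lower at 20 °C, and the median gene differed by -0.25. Rescaling the libraries by their median ratio brought the median to -0.02 and the calls to 3821 higher and 2213 lower, so the share of calls that were higher moved from 14.9% to 63.3%. With quantile normalization 3118 genes were higher and 2695 lower. Under all 3 scalings, 1429 genes (8.99%) were higher and 1987 (12.5%) were lower. A few very abundant transcripts took more of the 20 °C libraries: genes of the mitochondrial genome made up 9.62 to 14.5% of the summed RPKM at 20 °C and 6.49 to 10.6% at 30 °C, and the desaturase Scd1 alone 4.33 to 6.29% against 1.83 to 2.67%. The part of these transcripts in the shift was not tested. Most counts of lower genes are therefore given below both in RPKM and after median-ratio rescaling or under all 3 scalings. Each list count below is to be read beside the shares of all genes. These were 9.02% higher and 51.4% lower in RPKM, and 8.99% and 12.5% under all 3 scalings. After median-ratio rescaling they were 3821 and 2213 of the 15897 genes tested. Because this is bulk tissue, fewer cells of a type and less RNA per cell cannot be told apart.

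Thermogenic genes rose almost without exception. Of the 18 genes of the thermogenic core list, 17 rose and none fell, with a median difference of 1.93 against -0.25 over all genes tested, and the same 17 were called under all 3 scalings. In 17 of the 18, every library at 20 °C lay above every library at 30 °C, an arrangement found in 3.88% of all genes tested. The count stayed at 17 when each library was left out in turn. The exception was Mpzl2, a cell adhesion gene, at 14.3 RPKM at 30 °C and 18.2 RPKM at 20 °C (medians), a difference of 0.34 (adjusted p = 0.107).

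**Figure D1:**
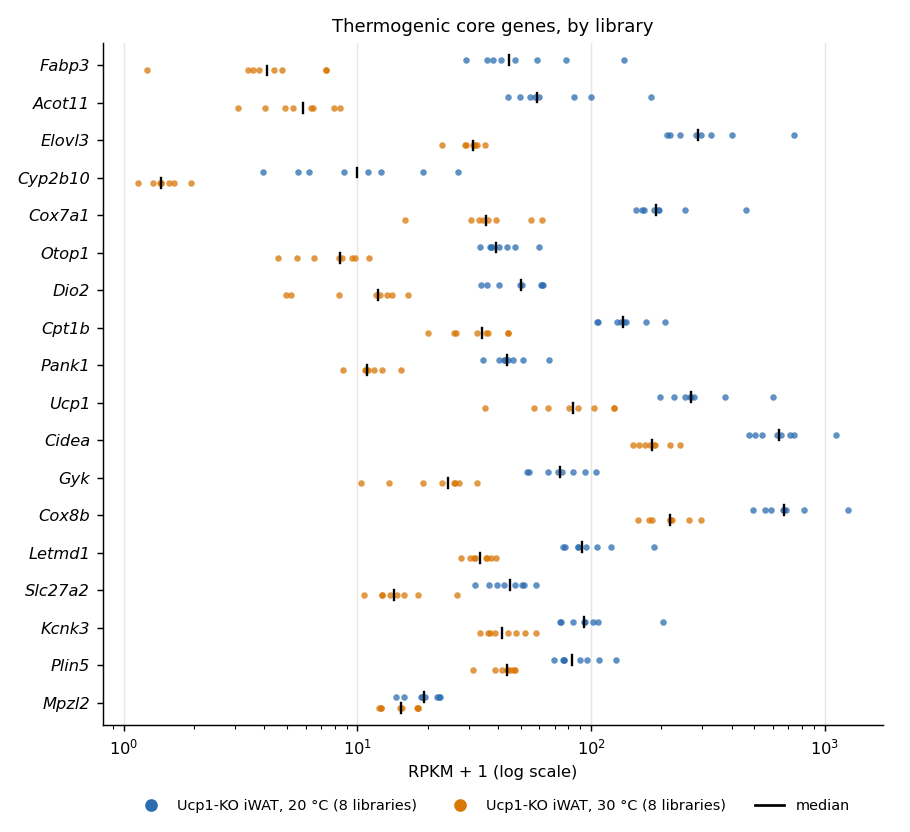
Level of each of the 18 thermogenic core genes in every Ucp1-KO iWAT library, as RPKM + 1 on a log axis, with the 8 libraries at 20 °C in blue, the 8 at 30 °C in orange and the group median as a bar. The groups are apart in every gene but Mpzl2, and the point farthest to the right at 20 °C is library 64 in 17 of the 18.

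The RefSeq promoter windows of 3 genes that rose are shown, picked because they carry letters of the motifs searched for. The genes are Dio2 (Entrez 13371), which codes for the deiodinase that activates thyroid hormone inside the cell, and Fgf21 (Entrez 56636), a hormone. Acot11 (Entrez 329910), a thioesterase that frees fatty acids from coenzyme A, is the other. Each run is the 250 bases before the start site on the minus strand of GRCm38.p6, at chr12:90739039-90739288 for Dio2, chr7:45615491-45615740 for Fgf21 and chr4:106799832-106800081 for Acot11. Capitals mark the CREB octamer TGACGTCA in Dio2, the ATF4/CEBP core TTGCATCA and an E-box CACGTG in Fgf21, and an E-box in Acot11. Acot11 had 2 windows, and the one with the E-box is shown.
Dio2: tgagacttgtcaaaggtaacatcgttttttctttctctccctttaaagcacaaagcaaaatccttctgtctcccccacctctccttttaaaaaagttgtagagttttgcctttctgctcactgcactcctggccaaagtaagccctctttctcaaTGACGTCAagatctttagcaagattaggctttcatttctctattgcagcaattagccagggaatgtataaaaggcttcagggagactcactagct
Fgf21: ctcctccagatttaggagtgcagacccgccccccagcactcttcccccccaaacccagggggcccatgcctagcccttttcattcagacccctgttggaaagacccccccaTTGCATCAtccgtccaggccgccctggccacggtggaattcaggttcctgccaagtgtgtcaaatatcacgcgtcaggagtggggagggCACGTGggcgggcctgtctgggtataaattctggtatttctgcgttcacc
Acot11: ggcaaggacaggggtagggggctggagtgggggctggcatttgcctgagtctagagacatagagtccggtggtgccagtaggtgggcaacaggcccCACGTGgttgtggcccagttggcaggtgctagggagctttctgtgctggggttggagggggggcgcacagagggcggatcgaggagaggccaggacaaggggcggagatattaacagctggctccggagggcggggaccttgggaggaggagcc
Windows from 250 bases before to 50 after the start were used for 11704 of the 15897 genes tested, and both strands were searched. Genes on 1 chromosome were left out of this search, so they count among those without a window. The CREB octamer was in 3.28% of them and in 3.99% of the 1102 genes with a window that were higher at 20 °C. The ATF4/CEBP core was in 0.82% and 1.27%, the estrogen-related receptor element TCAAGGTCA in 0.325% and 0.454%, and the E-box in 11.2% and 11.6%. Of the 13 thermogenic core genes with a window, 1 held the CREB octamer, 2 the E-box and none the ATF4/CEBP core. Among the 12 largest rises, 10 had a window. Of those 10 genes, 2 held the E-box and none the CREB octamer or the ATF4/CEBP core. These are counts of letters in short windows, not of bound sites.

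The 4 core genes with the largest differences were Fabp3, Acot11, Elovl3 and Cyp2b10. Fabp3, which carries fatty acids in oxidative cells, had 28.3, 43.4 and 138 RPKM (lowest, median and highest of 8) at 20 °C and 0.261, 3.09 and 6.35 RPKM at 30 °C. The difference was 3.69 ± 0.36 (SE), with an adjusted p of 3.7e-11. Acot11 had 43.0, 57.6 and 180 RPKM at 20 °C and 2.07, 4.84 and 7.42 RPKM at 30 °C, a difference of 3.68 ± 0.26 (adjusted p = 3.2e-15). For both genes the 2 temperatures did not overlap. Elovl3, which lengthens fatty acids in brown fat, had 210, 287 and 741 RPKM against 22.1, 30.3 and 34.1 RPKM, a difference of 3.37 ± 0.35 (adjusted p = 2.1e-10). Cyp2b10, a cytochrome P450 that oxidises lipids and drugs, was below 1 RPKM in all libraries at 30 °C (0.154 to 0.942 RPKM) and at 2.93 to 25.9 RPKM at 20 °C, and differed by 2.73 ± 0.23 (adjusted p = 4.2e-13).

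The classical brown fat genes were already measurable at 30 °C. Cidea, a lipid droplet protein of brown adipocytes, had 474, 640 and 1119 RPKM at 20 °C and 150, 181 and 240 RPKM at 30 °C, and rose by 1.81 ± 0.28 (adjusted p = 9.0e-07). The respiratory chain subunits Cox7a1 and Cox8b, used by muscle and brown fat, rose by 2.54 ± 0.31 and 1.69 ± 0.22 (adjusted p = 8.0e-09 and 3.0e-08). Cox7a1 spanned 155 to 458 RPKM at 20 °C and 15.0 to 60.6 RPKM at 30 °C. Dio2 had 32.8, 49.1 and 61.2 RPKM against 3.94, 11.2 and 15.5 RPKM, a difference of 2.27 ± 0.31 (adjusted p = 1.2e-07). Otop1, a proton channel of brown fat, rose by 2.43 ± 0.20, and Letmd1, a mitochondrial inner membrane protein needed for brown fat function, by 1.59 ± 0.11, with the libraries of both genes fully apart. Ucp1 itself was still read in these libraries: 196, 266 and 597 RPKM at 20 °C and 34.1, 83.1 and 125 RPKM at 30 °C, a difference of 1.88 ± 0.54 (adjusted p = 0.00324). Its reads do not check the genotype, since the part of the gene that the allele lacks is not given.

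Several of the 12 largest rises lay outside the core list. Phospho1, a phosphatase that acts on phosphocholine and phosphoethanolamine, had 140, 164 and 350 RPKM at 20 °C and 17.1, 28.5 and 34.8 RPKM at 30 °C, and rose by 2.76 ± 0.21 (adjusted p = 2.3e-14). Fam151a rose by 3.64 ± 0.26, from 2.13 to 6.28 RPKM at 30 °C to 37.7 to 93.0 RPKM at 20 °C. The ranges of Abi3, an adaptor of the actin cytoskeleton, were 12.0 to 22.1 RPKM at 30 °C and 76.7 to 186 RPKM at 20 °C (difference 2.42 ± 0.17). Zfp652, a zinc finger transcription factor, spanned 8.04 to 14.3 RPKM at 30 °C and 48.3 to 113 RPKM at 20 °C (2.34 ± 0.16). None of these 4 genes had overlapping groups.

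Of 15 transcriptional regulators tested, 6 rose and 4 fell, with 6 and 1 called under all 3 scalings. Ppargc1a, the coactivator that drives mitochondrial biogenesis, had 6.18, 8.06 and 9.07 RPKM at 20 °C and 1.82, 2.62 and 3.87 RPKM at 30 °C, a rise of 1.27 ± 0.13 (adjusted p = 5.8e-11). Its relative Ppargc1b rose by 0.53, the nuclear receptors Esrrg and Esrra by 0.83 and 0.51, and Ppara, the receptor that governs fatty acid oxidation, by 0.74. Prdm16, which commits cells to the brown fate, differed by -0.23 (adjusted p = 0.107) in RPKM and by 0.03 after median-ratio rescaling. Pparg, the master regulator of adipocytes, differed by -0.17 (adjusted p = 0.0949) and 0.19. Other factors of adipocyte identity in the list, such as Ebf2, are not reported here. Nrf1, an activator of respiratory genes, fell by 0.65 and was lower under all 3 scalings.

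Markers meant to tell beige from classical brown cells gave no common direction. Of 11 tested, 2 rose and 4 fell in RPKM, beside 9.02% and 51.4% of all genes. After median-ratio rescaling 3 were higher and 2 lower, beside 3821 and 2213 of all 15897 genes. Slc36a2, an amino acid transporter, rose from 105 to 145 RPKM at 30 °C to 157 to 214 RPKM at 20 °C (0.58, adjusted p = 1.2e-05), and the purinergic receptor P2rx5 rose by 0.52. Lhx8, a homeobox gene of brown fat, fell by 0.88 (adjusted p = 4.3e-08), and Tnfrsf9, a beige marker that lymphocytes also express, fell by 0.55 but not after quantile normalization (adjusted p = 0.0509). Zic1 and Myf5 were below the filter of 0.5 RPKM in 8 libraries and were not tested.

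In the adrenergic and thyroid list, 5 of 19 rose and 6 fell in RPKM, and 3 of the falls were called under all 3 scalings. The α1-adrenergic receptor Adra1a had 15.3, 17.1 and 23.3 RPKM at 20 °C against 4.24, 6.69 and 7.95 RPKM at 30 °C, a rise of 1.32 ± 0.16 (adjusted p = 7.4e-09). The β3 receptor Adrb3, the main one of rodent adipocytes, had medians of 66.7 and 66.2 RPKM and a difference of 0.04 (adjusted p = 0.853), which took the other sign without library 64, 76 or 80. Among the adenylyl cyclases, Adcy3 rose by 0.66 and Adcy4 fell by 0.64.

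**Figure D2:**
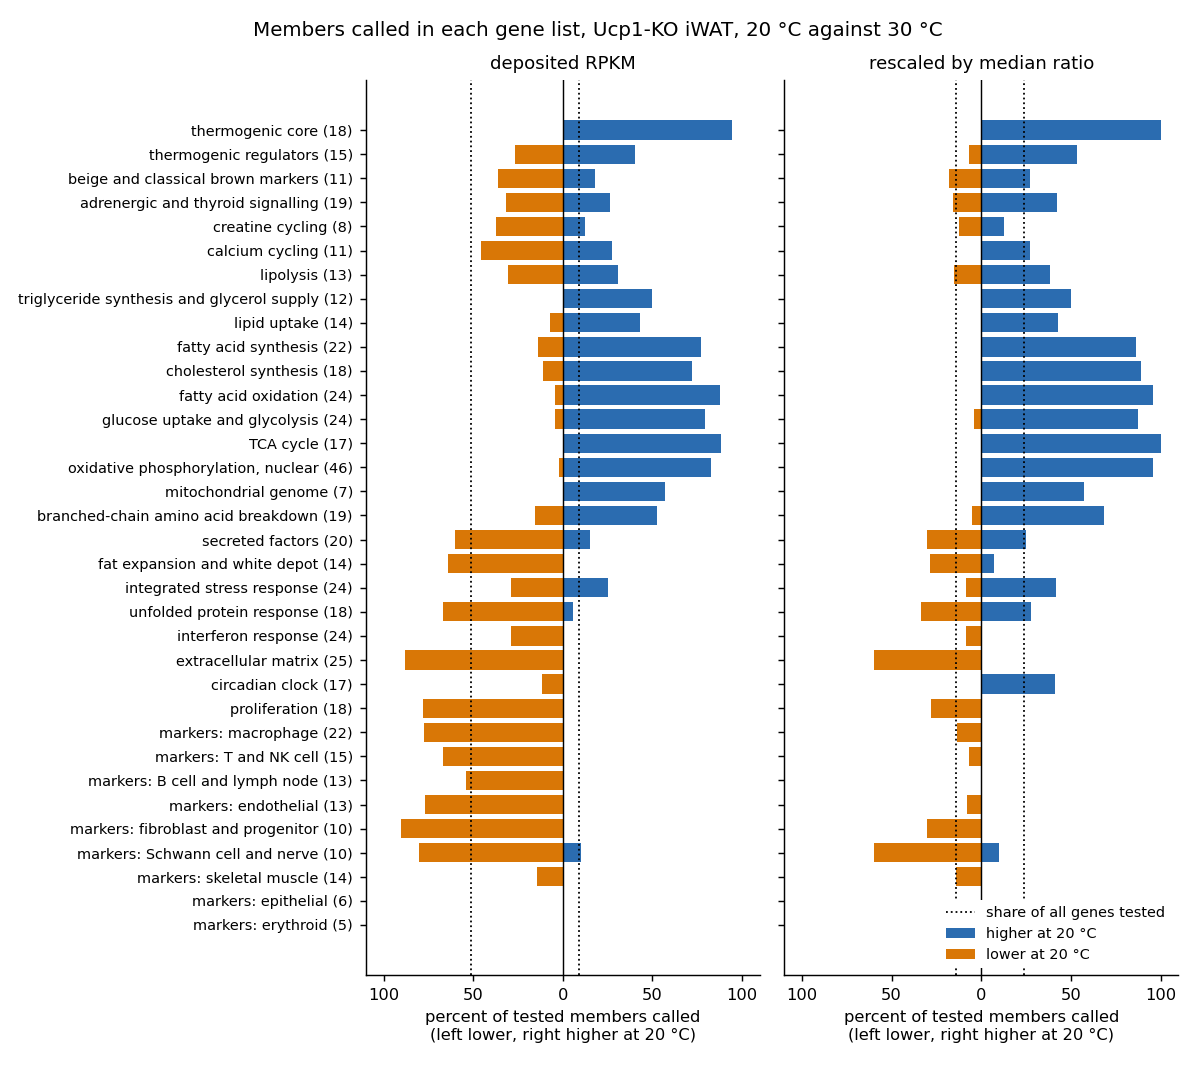
Percent of tested members called higher (blue, right) or lower (orange, left) at 20 °C in each gene list, in the deposited RPKM (left panel) and after median-ratio rescaling (right panel), with the number tested in brackets and the share of all genes as dotted lines. The fuel-burning and lipid-making lists stay on the right in both panels, and the extracellular matrix list and most of the Schwann cell list stay on the left.

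Of 8 members of the proposed creatine cycle, 1 rose and 3 fell, beside 9.02% and 51.4% of all genes, and after median-ratio rescaling 1 was higher and 1 lower. The riser was Alpl, the tissue-nonspecific alkaline phosphatase, from 1.03 to 3.03 RPKM at 30 °C to 3.21 to 4.97 RPKM at 20 °C (0.76 ± 0.13, adjusted p = 8.5e-06). Ckb, the brain-type creatine kinase, had medians of 5.66 RPKM at 20 °C and 7.45 RPKM at 30 °C, a difference of -0.32 (adjusted p = 0.00645) that was not called after rescaling (-0.01, adjusted p = 0.945). Gatm, which makes the creatine precursor, fell by 0.64 (adjusted p = 1.6e-04). The mitochondrial kinase Ckmt2 ran from 0 to 7.92 RPKM at 20 °C and 0 to 21.1 RPKM at 30 °C, a range as wide as that of the skeletal muscle markers, and was not called (adjusted p = 0.0533).

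For calcium cycling, the pump Atp2a2 (SERCA2) rose in every library: 44.2, 51.3 and 54.5 RPKM at 20 °C against 32.3, 35.5 and 38.8 RPKM at 30 °C, a difference of 0.48 ± 0.06 (adjusted p = 7.3e-09). The inositol trisphosphate receptors Itpr1 and Itpr2, which release calcium from the reticulum, rose by 0.30 and 0.29. In all, 3 of 11 tested members rose and 5 fell, and after median-ratio rescaling 3 rose and none fell. Atp2a1, the muscle pump, spanned 3.38 to 371 RPKM at 20 °C and 0.505 to 785 RPKM at 30 °C and was not called (adjusted p = 0.264). Sarcolipin (Sln) and the ryanodine receptor Ryr2 were below the filter.

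Genes of lipid synthesis and of lipid burning rose side by side. Of 22 fatty acid synthesis genes, 17 rose and 3 fell, with a median of 1.07. No gene was lower after median-ratio rescaling, and 2 were after quantile normalization. Acly, which makes cytosolic acetyl-CoA, had 220, 569 and 1119 RPKM at 20 °C and 61.9, 130 and 284 RPKM at 30 °C, a rise of 2.04 ± 0.26 (adjusted p = 2.7e-08), with the groups overlapping at 1 end. Fasn, the fatty acid synthase, had 2108, 3577 and 4648 RPKM against 525, 1301 and 1654 RPKM (1.66 ± 0.30, adjusted p = 9.9e-06). The elongase Elovl6 had 154, 324 and 415 RPKM against 23.3, 58.6 and 76.4 RPKM (2.46 ± 0.30, adjusted p = 8.9e-09). Scd1, the main desaturase, rose from 6988 to 10956 RPKM at 30 °C to 16966 to 24290 RPKM at 20 °C, and its low-level relative Scd3 rose from at most 1.02 RPKM to at least 2.46 RPKM. Scd genes are close in sequence, and how shared reads were counted is not given in the sources used here. G6pdx and Pgd, the NADPH-making enzymes of the pentose phosphate route, rose by 1.13 and 1.44. The regulators Srebf1 and Nr1h3 were among the 3 that fell in RPKM, by 0.44 and 0.50.

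Cholesterol synthesis genes followed, with 13 of 18 higher and 2 lower in RPKM (median 0.63), and 16 higher and none lower after median-ratio rescaling. Fdps, which makes farnesyl diphosphate, had medians of 9.91 RPKM at 20 °C and 2.62 RPKM at 30 °C (1.67 ± 0.17, adjusted p = 2.1e-10), and Lss, which closes the sterol ring, rose from a median of 3.98 RPKM to 13.1 RPKM (adjusted p = 1.1e-08). In triglyceride synthesis and glycerol supply 6 of 12 rose and none fell. Both glycerol-3-phosphate dehydrogenases were among them: mitochondrial Gpd2 had 109, 127 and 229 RPKM against 27.0, 46.8 and 64.8 RPKM (1.56 ± 0.14), and cytosolic Gpd1 had 1624, 1921 and 3215 RPKM against 654, 807 and 957 RPKM (1.37 ± 0.13). Glycerol kinase (listed as Gyk), which recycles glycerol in brown fat, rose by 1.81 ± 0.24. Pck1, which feeds glycerol synthesis in white fat, differed by -0.30 in RPKM (adjusted p = 0.0526) and by 0.06 after median-ratio rescaling.

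Of 13 lipid droplet and lipolysis genes tested, 4 rose and 4 fell in RPKM, and 3 and 2 were called under all 3 scalings. Plin2, the coat of small droplets, rose by 1.24 ± 0.15, from 230 to 355 RPKM at 30 °C to 492 to 1245 RPKM at 20 °C. Plin4, a coat protein of white adipocytes, fell by 1.46 ± 0.16, with 200, 316 and 557 RPKM at 20 °C and 593, 855 and 1235 RPKM at 30 °C. Both pairs of groups were fully apart. Cidec, which fuses droplets, fell by 0.63 but was not called after median-ratio rescaling (-0.28, adjusted p = 0.18). The lipases Pnpla2 and Lipe were not called, at -0.10 and -0.07. Niacr1, a receptor that restrains lipolysis, fell by 1.01 (adjusted p = 4.6e-06). For lipid uptake 6 of 14 rose and 1 fell in RPKM. None was lower after median-ratio rescaling, and 1 was after quantile normalization. The lipid uptake genes that rose included the VLDL receptor Vldlr (1.25) and the carrier Fabp5 (0.97).

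Genes that burn fuel in mitochondria rose as blocks. In fatty acid oxidation 21 of 24 rose and 1 fell, with a median of 0.93. Cpt1b, the muscle and brown fat form of the carnitine transferase that admits fatty acids to mitochondria, rose by 2.11 ± 0.26, while Cpt1a, the liver form, was the member that fell (-0.52) and was not lower under all 3 scalings. Hadha, of the trifunctional protein, had 302, 358 and 552 RPKM at 20 °C and 121, 137 and 157 RPKM at 30 °C, a rise of 1.43 ± 0.10 (adjusted p = 3.4e-15). In the citrate (TCA) cycle 15 of 17 rose and none fell (median 0.86), and 14 of the 17 had groups fully apart, among them Suclg1 (1.31). Of all genes tested, 9.02% rose, and 3.88% had every library at 20 °C above every library at 30 °C.

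Of 46 nuclear genes of oxidative phosphorylation, 38 rose and 1 fell in RPKM, with a smaller median of 0.51. After median-ratio rescaling 44 were higher and none lower, and after quantile normalization 40 were higher and 1 lower. Ndufv1 of complex I rose by 1.13 ± 0.10, with 180, 203 and 313 RPKM against 81.9, 98.3 and 116 RPKM, and Uqcrc1 of complex III by 1.07 ± 0.10. Their summed level was 11464 to 20852 RPKM at 20 °C and 7858 to 10901 RPKM at 30 °C, with no overlap. Of 13 listed genes of the mitochondrial genome 7 were tested, without ND1, ND2, ND4, CYTB, ATP6 and ATP8. Of the 7 tested 4 rose, led in p by ND5 (0.53, adjusted p = 0.00129), and ND5 overlapped between the groups. With quantile normalization 2 of the 7 were called, and without the filter on low values none was, ND5 having an adjusted p of 0.0633. COX1 rose by 0.36 in RPKM but took the other sign after quantile normalization (-0.22, adjusted p = 0.201), and it was not called without library 64 (0.31, adjusted p = 0.0505).

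Genes of glucose use rose as well, with 19 of 24 higher and 1 lower, both under all 3 scalings. Pfkl, the liver-type phosphofructokinase, rose by 1.49 ± 0.12, from 36.2 to 44.1 RPKM at 30 °C to 87.2 to 191 RPKM at 20 °C, and Mpc1, of the mitochondrial pyruvate carrier, by 1.18 ± 0.14. The member that fell was Slc2a1, the basal glucose transporter (-0.53), and the insulin-responsive transporter Slc2a4 rose by 0.53. In branched-chain amino acid breakdown 10 of 19 rose and 3 fell in RPKM, and 1 of the falls was called under all 3 scalings. Bckdha, of the committing dehydrogenase, rose by 0.94, and Bcat2, the aminotransferase of the preceding step, fell by 0.89 (adjusted p = 1.4e-05).

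Of 20 secreted factors 3 rose and 12 fell (6 under all 3 scalings), beside 9.02% and 51.4% of all genes. Fgf21, a hormone of metabolic stress, rose from 0.0883 to 1.01 RPKM at 30 °C to 1.75 to 15.4 RPKM at 20 °C (1.84 ± 0.23, adjusted p = 1.2e-08), with no overlap. Gdf15, a stress hormone that lowers food intake, rose by 0.95 ± 0.22 (adjusted p = 2.6e-04) with overlapping groups, at 2.18 to 10.0 RPKM and 0.577 to 3.40 RPKM. Adipsin (Cfd) had 1665, 3078 and 6086 RPKM at 20 °C and 5740, 8274 and 10764 RPKM at 30 °C, a fall of 1.42 ± 0.25. Adiponectin (Adipoq) had 857, 1143 and 1653 RPKM against 1649, 2229 and 2592 RPKM (-0.92 ± 0.13), and the growth factor Igf1 fell by 1.14. Leptin (Lep), whose level tracks fat stores, had 14.4, 22.7 and 57.2 RPKM against 42.7, 62.8 and 107 RPKM. It fell by 1.29 ± 0.41 (adjusted p = 0.00627) but was not called after median-ratio rescaling (-0.95, adjusted p = 0.0695).

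**Figure D3:**
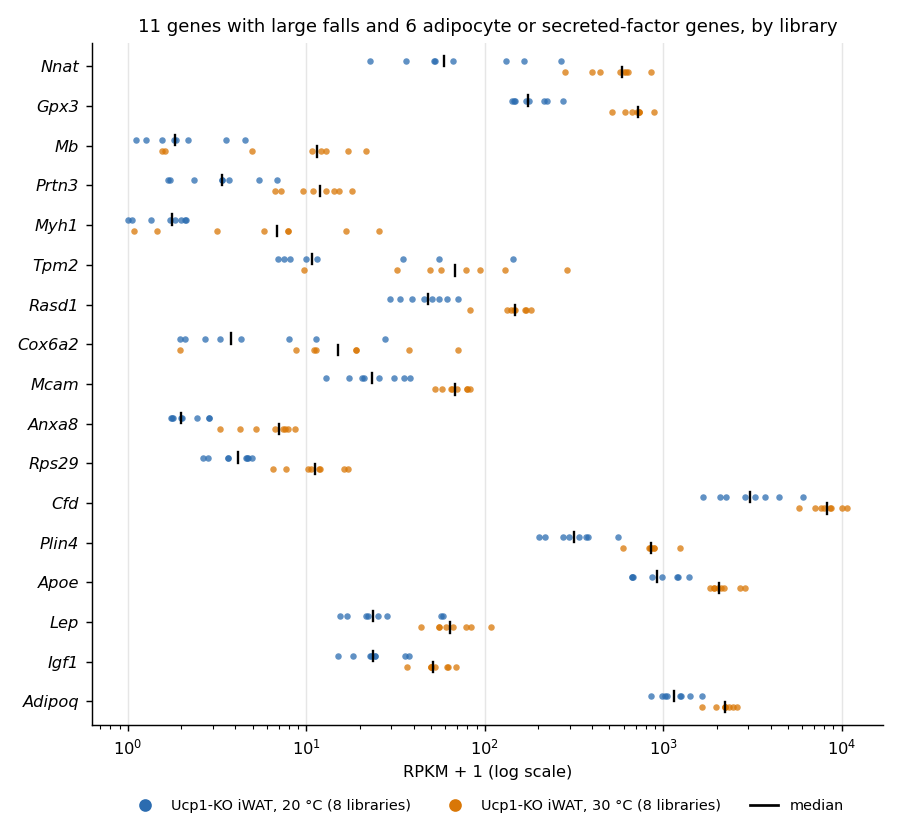
Level of 11 of the 12 genes with the largest falls and of 6 adipocyte or secreted-factor genes in every Ucp1-KO iWAT library, as RPKM + 1 on a log axis, with 20 °C in blue, 30 °C in orange and the group median as a bar. Nnat, Gpx3, Rasd1, Mcam, Anxa8, Rps29, Plin4 and Apoe show no overlap, while the muscle genes Mb, Myh1, Tpm2 and Cox6a2 overlap widely.

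The largest fall was that of Nnat, neuronatin, a small reticulum protein from an imprinted gene, with 21.7, 58.4 and 266 RPKM at 20 °C and 282, 587 and 855 RPKM at 30 °C (-2.84 ± 0.35, adjusted p = 1.2e-08). Gpx3, a secreted glutathione peroxidase, had 141, 173 and 275 RPKM against 513, 720 and 890 RPKM (-1.92 ± 0.16, adjusted p = 8.4e-13). All 8 libraries at 20 °C lay below all 8 at 30 °C for both genes, as they did in 9.69% of the genes tested. Angiotensinogen (Agt) and the imprinted Peg3 fell by 1.35 and 1.09. Of 14 genes of fat expansion and the white depot none rose and 9 fell in RPKM (4 under all 3 scalings, with 1 higher after median-ratio rescaling). Of all genes, 51.4% were lower in RPKM and 12.5% under all 3 scalings. Mcam, an adhesion molecule of vessels and pericytes, fell by 1.52. Rasd1, a small G protein, fell by 1.62, Anxa8, an annexin, by 1.51 and Prtn3, a protease of myeloid cells, by 1.82. Rps29 fell by 1.51 at 1.65 to 3.95 RPKM against 5.49 to 16.1 RPKM, and its value is uncertain because ribosomal protein genes have many near-identical copies.

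Mb, Myh1, Tpm2 and Cox6a2, also among the 12 largest falls, are genes of skeletal muscle. Their medians were 0.843, 0.778, 9.71 and 2.81 RPKM at 20 °C and 10.4, 5.87, 67.1 and 14.2 RPKM at 30 °C. Of 14 muscle markers tested, none rose and 2 fell, and all had overlapping groups. That count of falls was 6 without library 75 and 5 without library 60. Tpm2 and Cox6a2 were not called after median-ratio rescaling (adjusted p = 0.0705 and 0.116). Leaving out the 3 libraries at 20 °C and 4 at 30 °C in which the muscle markers summed to over 1000 RPKM left 17 of 18 core genes higher, with a median of 2.27. In that fit Cox6a2 was not called (-1.31, adjusted p = 0.157).

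Of 24 integrated stress response genes 6 rose and 7 fell in RPKM, and 10 were higher and 2 lower after median-ratio rescaling. Beside these and the counts below, 9.02% of all genes were higher and 51.4% lower in RPKM. After median-ratio rescaling, 3821 of all 15897 genes were higher and 2213 lower, and 12.5% were lower under all 3 scalings. Trib3, a pseudokinase induced by ATF4, rose by 0.93, from 3.48 to 4.47 RPKM at 30 °C to 5.01 to 19.9 RPKM at 20 °C, while Phgdh, which opens serine synthesis, fell by 1.24 (adjusted p = 1.5e-06). Of 18 genes of the unfolded protein response 1 rose and 12 fell in RPKM, and after median-ratio rescaling 5 were higher and 6 lower. The protein disulfide isomerase Pdia4 fell by 0.88, with 16.9 to 31.4 RPKM at 20 °C and 35.3 to 51.5 RPKM at 30 °C, and the transcription factor Xbp1 fell by 0.82. Both were lower under all 3 scalings. For the interferon response none of 24 rose and 7 fell (2 under all 3 scalings), beside 51.4% of all genes. Of 17 clock genes none rose and 2 fell in RPKM, while 7 were higher and none lower after median-ratio rescaling. Of 18 proliferation genes none rose and 14 fell, 4 of them under all 3 scalings.

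Extracellular matrix genes fell: 22 of 25 in RPKM and 15 under all 3 scalings, and none rose (median -0.74). Decorin (Dcn) had 198, 289 and 360 RPKM at 20 °C and 375, 520 and 692 RPKM at 30 °C (-0.93 ± 0.16, adjusted p = 3.6e-06), and the basement membrane collagen Col4a1 fell by 0.84. Both were fully apart. The markers of fibroblasts and progenitors moved with them: they summed to 243 to 345 RPKM at 20 °C and 376 to 607 RPKM at 30 °C, and 9 of 10 fell (3 under all 3 scalings). Their part in the fall of the matrix genes was not tested.

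Of the markers of other cell types, those of Schwann cells fell in 8 of 10 tested, 6 of them under all 3 scalings, and 1 rose. Beside this and the counts below, 51.4% of all genes were lower in RPKM and 12.5% under all 3 scalings. The myelin gene Mbp fell by 1.09, with the groups fully apart. Macrophage markers summed to 1298 to 2377 RPKM at 20 °C and 3034 to 5026 RPKM at 30 °C; 17 of 22 fell, and 3 were lower under all 3 scalings. Of these, Apoe, which adipocytes also make, fell by 1.23 and Cd14 by 1.01. Apoe alone had 669 to 1390 RPKM at 20 °C and 1828 to 2880 RPKM at 30 °C. It was a large part of the macrophage sum, and a sum without Apoe was not compared. Endothelial markers fell in 10 of 13 in RPKM and in 1 after median-ratio rescaling. T and NK cell markers summed to 68.4 to 218 RPKM at 20 °C and 19.4 to 395 RPKM at 30 °C, with library 79 at the lowest value, and 10 of 15 fell in RPKM but 1 under all 3 scalings. The RPKM count was 14 without library 79, 6 without library 76 and 5 without library 64 or 80. B cell and lymph node markers were lower in 7 of 13 in RPKM, a share near that of all genes. The count was 13 without library 79, 11 without library 57 and 4 without library 75, 77 or 78. It was 3 without library 58, 63, 64, 74, 76 or 80. After median-ratio rescaling none of the 13 was called and after quantile normalization 1 was. In this list Ccl21a and Ccl19 were at 0 in all 16 libraries, and no other marker was. Epithelial markers (0.636 to 3.22 RPKM summed at 20 °C, 1.73 to 18.5 RPKM at 30 °C) and erythroid markers (161 to 1058 RPKM and 152 to 682 RPKM) overlapped between the temperatures.

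**Figure D4:**
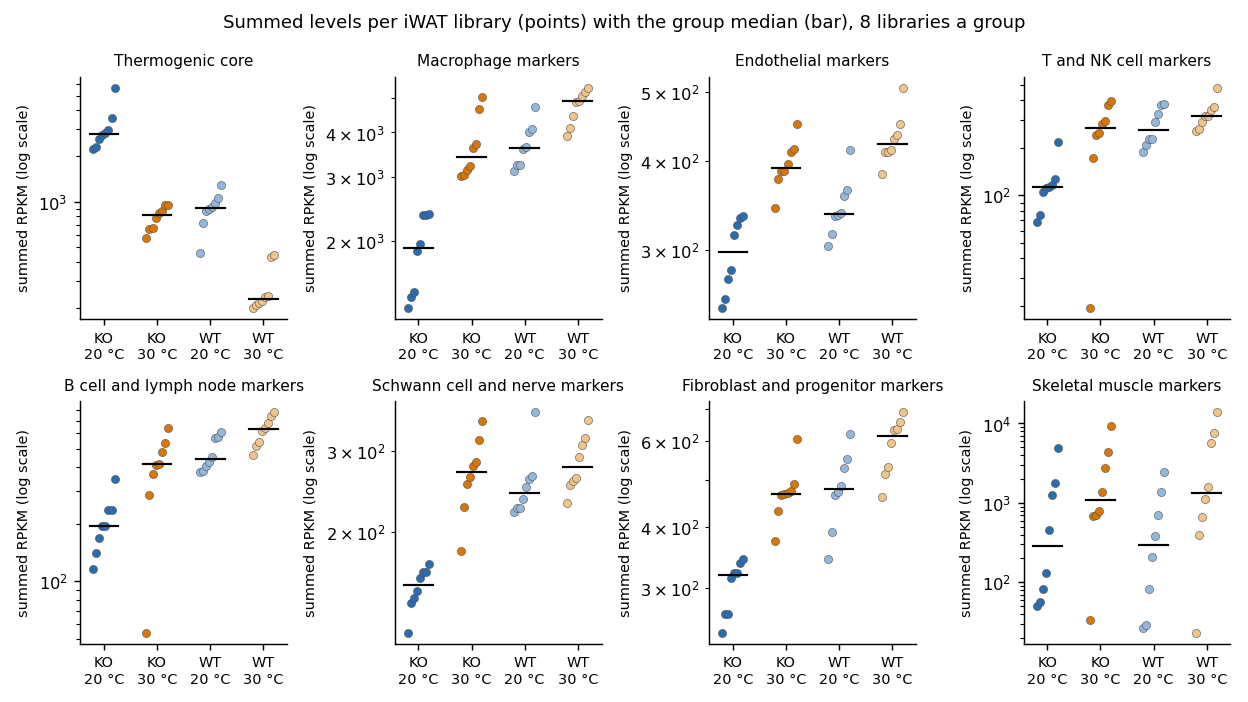
Summed RPKM of the thermogenic core and of 7 lists of cell type markers in each iWAT library on a log axis, for Ucp1-KO (KO) and wild-type (WT) mice at 20 °C and 30 °C, 8 libraries a group drawn in order of level, with the group median as a bar. Core sums at 30 °C in Ucp1-KO (576 to 956 RPKM) lie beside those of wild-type at 20 °C (460 to 1287 RPKM), and 1 Ucp1-KO library at 30 °C is far below the others in lymphocyte markers.

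Wild-type iWAT from mice on the same diet, with 8 libraries at each temperature, shows how the cold acts when the allele is intact. There 1152 genes (7.25%) were higher and 1964 (12.4%) lower at 20 °C in RPKM, against 1552 and 635 after median-ratio rescaling and 1634 and 893 after quantile normalization. Of the 1434 genes higher in Ucp1-KO iWAT, 763 were also higher in wild-type iWAT, which is 53.2% of the Ucp1-KO list and 66.2% of the wild-type list. The thermogenic core rose in 17 of 18 in wild-type iWAT too, with a median of 1.35. Its summed level was 2213 to 5604 RPKM in Ucp1-KO mice at 20 °C, 576 to 956 RPKM in Ucp1-KO at 30 °C, 460 to 1287 RPKM in wild-type at 20 °C and 198 to 443 RPKM in wild-type at 30 °C. The libraries of Ucp1-KO mice at 20 °C lay above all others, with or without library 64 (highest otherwise 3568 RPKM), whereas Ucp1-KO at 30 °C and wild-type at 20 °C overlapped.

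The difference between the genotypes was tested as an interaction, the temperature difference in Ucp1-KO minus that in wild-type. It was positive in 342 genes (2.15%; 335 or 2.11% under all 3 scalings) and negative in 1768 (11.1%; 162 or 1.02% under all 3). Of the core genes 4 passed, all with a larger rise in Ucp1-KO: Fabp3 (interaction 2.61 ± 0.51, adjusted p = 0.00102), Cyp2b10 (2.17), Acot11 (1.89) and Letmd1 (1.05). Ucp1, Elovl3, Cidea, Dio2 and Cox8b did not pass, with adjusted p from 0.0672 to 0.865. Ppargc1a also passed: its wild-type medians were 1.96 RPKM at 20 °C and 1.91 RPKM at 30 °C, and its interaction was 1.19 ± 0.18 (adjusted p = 2.6e-05).

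The 6 named positive interactions with the smallest p were those of Scd3, Acot2, Dhrs9, Zfp652, Abi3 and St6galnac6. Scd3 had wild-type medians of 0.258 RPKM at 20 °C and 0.316 RPKM at 30 °C (interaction 2.37 ± 0.23, adjusted p = 5.1e-09). The mitochondrial thioesterase Acot2 had wild-type medians of 7.20 and 5.46 RPKM against 37.1 and 10.6 RPKM in Ucp1-KO (1.55 ± 0.19, adjusted p = 5.6e-07). Dhrs9, a retinol dehydrogenase, stayed below 2 RPKM in wild-type iWAT and had 7.36 to 18.5 RPKM in Ucp1-KO iWAT at 20 °C (2.08, adjusted p = 8.8e-07). The interaction was 1.82 for Zfp652, 1.79 for Abi3 and 0.89 for the sialyltransferase St6galnac6. Acsl5, an acyl-CoA synthetase, followed at 1.34, the stress hormones Fgf21 and Gdf15 at 1.36 and 1.08, and Atp2a2 at 0.55, with a wild-type difference of -0.06.

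**Figure D5:**
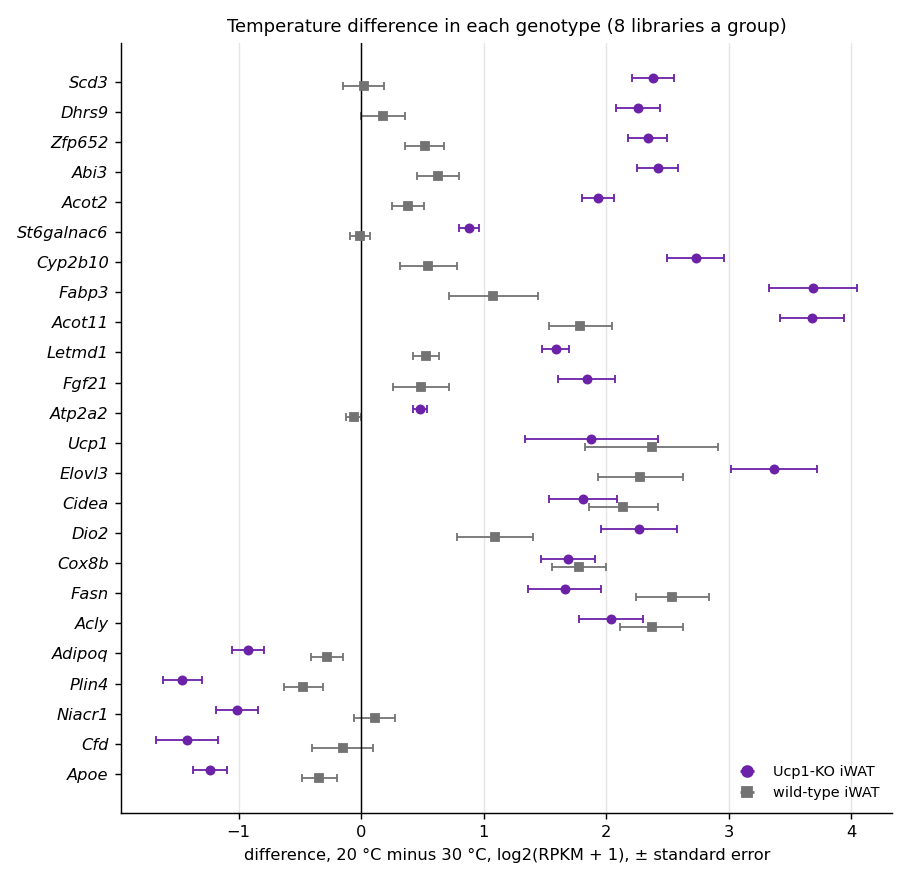
Temperature difference (20 °C minus 30 °C, log2(RPKM + 1), ± standard error) of 24 genes in iWAT of Ucp1-KO mice (purple circles) and wild-type mice (grey squares), 8 libraries a group. The top 12 genes rise more in Ucp1-KO, the next 7 (Ucp1 to Acly) did not pass the interaction test, and the last 5 fall more in Ucp1-KO.

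In RPKM, the negative interactions with the smallest p were Sdf4 (-0.47) and P4hb (-0.65), proteins of the secretory pathway, and Dgkd (-0.53), a diacylglycerol kinase. With them were Mum1 (-0.71), the class I antigen gene H2-D1 (-0.72) and the ATP synthase subunit Atp5g3 (-0.92). Of the 1768 negative interactions in RPKM, only 162 passed under all 3 scalings. Among adipocyte genes the fall was larger in Ucp1-KO for Cfd (-1.27 ± 0.35, adjusted p = 0.0141), Plin4 (-0.98), Niacr1 (-1.12) and Adipoq (-0.64), but Adipoq did not pass after median-ratio rescaling (-0.38, adjusted p = 0.286), nor Cfd after quantile normalization (adjusted p = 0.455). Apoe (-0.89) passed under all 3 scalings. Fatty acid synthesis and oxidative phosphorylation lists rose in both genotypes: 16 of 22 and 44 of 46 rose in wild-type iWAT, with medians of 0.94 and 0.64. Fasn and Acly did not pass the interaction test (adjusted p = 0.153 and 0.581).

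In iBAT of Ucp1-KO mice on the same diet, 2109 of 16310 genes tested (12.9%) were higher and 9115 (55.9%) lower at 20 °C in RPKM. Median-ratio rescaling gave 4811 higher and 5197 lower genes, and quantile normalization 5062 and 4366. The temperature difference, taken with its sign, was higher in iWAT than in iBAT in 3067 genes (18.8%, and 10.1% under all 3 scalings). It was lower in 1093 (6.7%, and 6.33% under all 3). A higher value can be a larger rise in iWAT or a steeper fall in iBAT. No label ties the tissues of an animal, so the test treats them as unpaired. Of the core genes, 14 of 18 rose in iBAT, with a median of 0.95 against 1.93 in iWAT. Dio2 rose in iWAT but not in iBAT, where its medians were 155 RPKM at 20 °C and 234 RPKM at 30 °C (adjusted p = 0.0567), and the depot difference was 2.82 ± 0.37 (adjusted p = 5.2e-09). Fabp3 (1.82), Elovl3 (1.40) and Cidea (1.21) also rose more in iWAT, and Ucp1 did not pass (1.41, adjusted p = 0.0559).

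Scd3 and Cyp2b10 rose more in iBAT, with depot differences of -2.14 and -1.37. The genes with the smallest p in favour of iWAT were ones that fell steeply in iBAT: Srxn1 (3.20) and Sqstm1 (2.08), targets of the antioxidant factor NRF2, the myosin kinase Mylk (2.61), the AP-1 factor Fosl1 (3.08), Dnmt3l (2.13) and H2-D1 (1.49). Srxn1 had iBAT medians of 67.0 and 293 RPKM and iWAT medians of 37.4 and 16.8 RPKM at 20 °C and 30 °C. On the other side Cpne5 (-3.16), Ptgds (-3.81), Tesc (-2.13), Slco4a1 (-1.77), Lrfn3 (-1.09) and Iqsec1 (-1.01) led, and Ptgds, a prostaglandin synthase, had iBAT medians of 50.9 and 1.91 RPKM against iWAT medians of 1.16 and 0.811 RPKM. All 24 interferon response genes fell in iBAT, against 7 in iWAT, and for all 24 the depot difference was positive under all 3 scalings.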

How the data were processed

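The authors deposited 1 table of transcript abundances for all 96 libraries; per the labels' protocols these came from total RNA with a stranded mRNA kit. The unit is not named in the file: the deposited values were read as RPKM because 95.0 to 95.5% of the low values of the 16 libraries (up to 20 reads) fell within 0.05 of a whole read, which also gave each library's depth. CASAVA and bcl2fastq are the tools listed in the submitters' processing notes. Aligner, counter and build: not given in the sources used here. A read on a transcript of 1 kb stood for 0.062 to 0.112 RPKM.

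Each gene symbol was represented by its most abundant transcript, and transcripts without an Entrez identifier (13.76%, 9.85% of the summed RPKM) were left out. A gene was tested where 8 or more libraries reached 0.5 RPKM, as log2(RPKM + 1) with limma 3.58.1 (trend) in R 4.3.3, over the 48 iWAT libraries with 6 group means, or over all 96 with 12 for the depots. P-values were Benjamini-Hochberg adjusted per contrast over all genes tested, at 0.05; they measure the spread between animals. The fit was tested on simulated data.

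Named genes were the 12 largest rises and falls (mean of 5 RPKM or more in the higher group), the 5 members of each of 34 lists with the smallest p, the 6 genes each way with the smallest p in an interaction, and a fixed set (Ucp1, Ppargc1a, Cidea, Dio2, Elovl3, Cox8b, Fgf21, Gdf15, Lep, Adipoq, Fasn, Acly, Ckb, Ckmt2, Alpl, Atp2a1, Atp2a2, Sln, Ryr2, Gk or Gyk, Pck1). Predicted and unnamed genes were skipped, and a few genes that the rule names are not reported here. Mpzl2, Prdm16, Ppara, Esrra, Pparg, Adrb3, Adcy3, Itpr2, Srebf1, Nr1h3, Pnpla2, Lipe, Cpt1a, Slc2a1, Slc2a4 and Cpt1b are list members named after their values were seen. The comparison and lists were chosen with earlier results of these data known. Alternatives were other pseudocounts, filters, scalings, transcript sums, array weights, the 16 libraries alone and each library left out.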

Additional observations from a re-analysis of the deposited data

Results flagged for a closer look

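In 12 of 200 groups of 8 libraries tested over the reported genes, the highest or lowest library stood apart from the other 7 by Dixon's criterion at 95%, which chance alone gives in about 1 in 20 groups. Library 64 at 20 °C accounted for 2: it was highest in Cox7a1 (458.2 RPKM, others 154.5 to 251.9) and Uqcrc1 (391.9 RPKM, others 195.7 to 271.6). Library 74 at 30 °C was lowest in Elovl3 (22.09 RPKM), Elovl6 (23.33 RPKM), Gpd2 (27.03 RPKM) and Mpc1 (111.6 RPKM), all genes higher at 20 °C. Library 75 at 30 °C was lowest in Fabp3 (0.2613 RPKM, others 2.411 to 6.349) and Atp2a1 (0.5054 RPKM). Library 76 at 30 °C was lowest in Pparg (77.96 RPKM, others 96.95 to 114.9) and Rasd1 (81.89 RPKM). Scd1 in library 63 at 20 °C (16966.1 RPKM) and Tnfrsf9 in library 79 at 30 °C (0.3355 RPKM) were the other two.

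The temperature difference was larger in Ucp1-KO than in wild-type iWAT, by the interaction test in limma, for Fabp3 (2.61), Scd3 (2.37), Cyp2b10 (2.17), Dhrs9 (2.08), Acot11 (1.89), Zfp652 (1.82), Abi3 (1.79), Acot2 (1.55), Fgf21 (1.36), Acsl5 (1.34), Ppargc1a (1.19), Gdf15 (1.08), Letmd1 (1.05), St6galnac6 (0.89) and Atp2a2 (0.55). In RPKM it was lower in Ucp1-KO for Cfd (-1.27), Niacr1 (-1.12), Plin4 (-0.98), Atp5g3 (-0.92), Apoe (-0.89), H2-D1 (-0.72), Mum1 (-0.71), P4hb (-0.65), Adipoq (-0.64), Dgkd (-0.53) and Sdf4 (-0.47).

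Between the depots of Ucp1-KO mice, the difference, taken with its sign, was higher in iWAT than in iBAT for Srxn1 (3.20), Fosl1 (3.08), Dio2 (2.82), Mylk (2.61), Dnmt3l (2.13), Sqstm1 (2.08), Fabp3 (1.82), H2-D1 (1.49), Elovl3 (1.40) and Cidea (1.21). It was lower in iWAT for Ptgds (-3.81), Cpne5 (-3.16), Scd3 (-2.14), Tesc (-2.13), Slco4a1 (-1.77), Cyp2b10 (-1.37), Lrfn3 (-1.09) and Iqsec1 (-1.01).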

How the results depend on the processing

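The counts moved mainly with the scaling. With median-ratio scaling and quantile normalization, genes higher at 20 °C in Ucp1-KO iWAT numbered 3821 and 3118, and lower genes 2213 and 2695. Interactions of temperature and genotype numbered 1156 and 631 positive and 224 and 239 negative, and 1080 were negative with transcripts summed. Genes with a higher signed difference in iWAT than in iBAT numbered 1960 with quantile normalization. Those with a lower one numbered 2295 and 2089 with median-ratio scaling and quantile normalization. Leaving out 1 library at a time gave 1272 to 1460 higher and 7444 to 8499 lower genes, 259 to 372 positive interactions and 1133 (without wild-type library 56 at 20 °C) to 2507 (without library 79) negative ones. Without the muscle-rich libraries, an alternative chosen after seeing the data, 1173 were higher and 7588 lower. Of 100 reported genes, 86 kept direction and call under every alternative. The sign turned for COX1 (-0.22, quantile), Pck1 (0.06), Pparg (0.19) and Prdm16 (0.03) with median-ratio scaling, Prdm16 (0.05, quantile), and Adrb3, which ranged from -0.12 to 0.18 over the libraries left out; the cause was not tested. Ckmt2 was called without library 57, 60, 75 or 77. No paired analysis was made. The labels give no pairs between the temperatures, and none ties the iWAT and iBAT libraries of an animal. Depth limits genes near 0.5 RPKM, where a difference rests on few reads.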
